A study of Curcuma longa with 2 samples.

Results

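The miR396 family is a group of plant microRNAs (miRNAs) that lower the transcripts of GROWTH-REGULATING FACTOR (GRF) genes. Its members were taken by name from the deposited list of miRNAs in turmeric nanoparticles: every line named miR396 or MIR396, whatever the species prefix. This gave 19 lines with 12 distinct sequences, of 186 distinct sequences in the list, and 10 of the 12 had reads. Small RNA was sequenced in 2 samples of nanoparticles, labelled Turmeric ELN 1 and Turmeric ELN 2 and taken from the root of Curcuma longa (library 1 and library 2 below). Both belong to the same group, and there is no control, treatment or other tissue. No cell fraction, purity or particle check is given in the labels, so RNA inside the particles and RNA carried along with them cannot be told apart. The labels do not say whether the samples were separate preparations, so a difference between them may be technical. A p-value between them is set against counting error alone and measures no spread between preparations.

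A plant miRNA is cut from the stem of a folded precursor, from which a 5p arm and a 3p arm come out as a duplex. The arm that is loaded into an ARGONAUTE protein guides the cutting of transcripts that pair with it. GRF proteins act with GIF coactivators to keep cells of young leaves and other organs dividing, and in Arabidopsis and rice higher miR396 gives smaller organs. In Arabidopsis the pairing of miR396 with GRF transcripts leaves a bulged base, and grasses have in addition a second kind of miR396 with an added base near that place.

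The sequences with reads fell into 3 groups by seed, the bases 2 to 8 from the 5′ end, and they are shown because the results turn on the differences between their seeds and between their last bases. The seed is in capitals, T stands for U as in the deposited list, and the names are those of the list, where osa is rice, ppe peach and aof asparagus. R+1 or R-1 means 1 base more or fewer at the right end than the registered sequence, L-1 means 1 fewer at the left end, and ss marks a substitution. The first group holds 6 sequences of the miR396a-5p type.
osa-miR396a-5p: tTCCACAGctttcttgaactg
osa-miR396a-5p_1ss20TG: tTCCACAGctttcttgaacgg
osa-miR396a-5p_R-1: tTCCACAGctttcttgaact
osa-miR396a-5p_R+1_2: tTCCACAGctttcttgaactgc
osa-miR396a-5p_R+1_1: tTCCACAGctttcttgaactga
ppe-miR396a_R-1: tTCCACAGctttcttgaacg
The second group holds 3 sequences of the miR396e-5p type.
osa-miR396e-5p: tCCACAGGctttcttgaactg
osa-miR396e-5p_R-1: tCCACAGGctttcttgaact
osa-miR396e-5p_R+1_1ss21GT: tCCACAGGctttcttgaacttt
The third is the only 3p sequence of the family in the list.
osa-miR396a-3p_L-1R+1: tTCAATAAagctgtgggaaa
The remaining pair, named for asparagus miR396a and rice miR396c, had no reads in either library.
aof-miR396a: tTCCACGGctttcttgaactg
osa-miR396c-5p_R+1_2ss7AG21TG: tTCCACGGctttcttgaactgc

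The miR396a-5p and miR396e-5p types differ by 2 changes, found by aligning the leading sequence of each. The miR396e-5p sequence lacks the first base of miR396a-5p and has an added G at position 7 or 8 of the miR396e-5p sequence, next to an equal base. After these changes the sequences are the same, with 14 shared bases up to the 3′ end. All 6 forms of the first type began at the same base, as did all 3 of the second, so within a type the forms differed at the 3′ end only.

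The family had 2331 reads in library 1 and 1860 in library 2. These are 2.42% and 2.58% of the listed reads, 96386 in library 1 and 72196 in library 2, which is a total of the list and not the sequencing depth. The mean share was 2.50% ± 0.11 (SD, n = 2). Almost all of it came from the 5p arm, at 98.3% ± 0.31 (SD, n = 2) of the family's reads, and 85.7% ± 0.72 (SD, n = 2) of the reads were 21 nt long. The sequences of all other families together had 57.9% ± 0.71 (SD, n = 2) of their reads at 21 nt and 21.8% ± 1.91 at 20 nt. These are pooled values and do not give the lengths in single families.

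The leading sequence, osa-miR396a-5p, had 970 reads in library 1 and 750 in library 2. It is identical to the registered rice sequence and made up 41.0% ± 0.91 (SD, n = 2) of the family. The second, osa-miR396e-5p, is also identical to its registered rice sequence and had 914 and 729 reads, 39.2% ± 0.012 (SD, n = 2) of the family. The leading sequence was 1.06-fold above the second in library 1 and 1.03-fold in library 2. These differences lay within counting error (two-sided exact binomial tests, p = 0.273 and 0.603, adjusted over 4 tests). The order of the pair was not resolved by these counts. When only lines on hairpin-forming stretches were counted, the ratio was 2.12 in library 1 and 2.06 in library 2. That setting drops 1 of 2 equal lines of osa-miR396e-5p, with 457 and 364.5 reads, and keeps both lines of osa-miR396a-5p. The larger ratio follows from this by construction and does not bear on the order. In the authors' deposited table, which sorts entries into high, middle and low expression, the first is called high and the second middle. All other members with reads were called middle there, apart from ppe-miR396a_R-1, called low. The members listed at 0 in both libraries were called middle too. These labels therefore cannot rest on the 2 libraries alone, and they do not rank the leading pair in them.

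Together both leading sequences held 80.8% of the miR396 reads in library 1 and 79.5% in library 2. The remaining 8 sequences with reads shared 447 reads in library 1 and 381 in library 2. By the first name of each entry, identical forms held 80.2% ± 0.92 (SD, n = 2) of the miR396 reads and 20.4% ± 0.23 (SD, n = 2) of the reads of all other entries. Single families vary widely in this, from 0% in miR162 and miR164 and 6.83% in miR319 to 93.5% in miR165/miR166 and 100% in miR528. Counting any registered sequence quoted in the list as a match, the value for the other entries was 22.4% ± 0.22 (SD, n = 2). With 2 libraries, a two-sided exact sign-flip permutation test cannot give a p below 0.5, so no p-value goes with this difference.

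**Figure D1:**
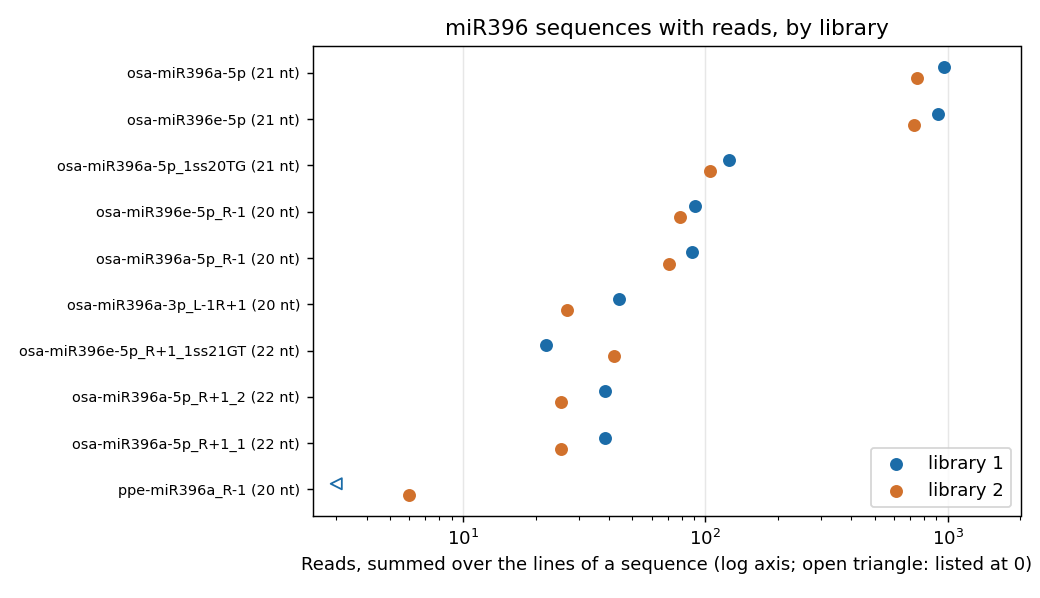
Reads of each of the 10 miR396 sequences with reads, in library 1 and library 2, on a log axis; the open triangle marks a sequence listed at 0. The 21-nt forms osa-miR396a-5p (970 and 750 reads) and osa-miR396e-5p (914 and 729 reads) stand apart from the other members, none of which passes 125 reads.

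Summed over its forms, the miR396a-5p type had 1260 reads in library 1 and 983 in library 2. The miR396e-5p type had 1027 and 850 reads. The first type was higher in both libraries, by 1.23-fold and 1.16-fold, and both differences passed an exact binomial test on the reads of each library (p = 4.81e-06 and 0.00408, adjusted over 4 tests). The proportion of the types did not differ detectably between the libraries (Fisher's exact test, odds ratio 1.06, p = 0.361, adjusted over 2 tests). No molecular identifiers were used to count molecules, so these tests and all intervals cover counting error alone. The size of the difference rests on a counting choice. With a single line per sequence the ratio was 1.31 in library 1 and 1.23 in library 2. If only lines on a stretch that folds into a hairpin are counted, as described below, it was 2.19 and 2.05. That setting drops 1 of 2 equal lines of osa-miR396e-5p and of its 22-nt form. The miR396e-5p type thus loses reads by construction, and these ratios are not a separate estimate.

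Most reads of both types were 21 nt long. Of the miR396a-5p type, 86.9% ± 0.052 (SD, n = 2) of the reads were 21 nt, 7.41% ± 0.60 were 20 nt and 5.65% ± 0.65 were 22 nt. Of the miR396e-5p type, 87.4% ± 2.29 (SD, n = 2) were 21 nt, 9.08% ± 0.31 were 20 nt and 3.54% ± 1.98 were 22 nt. The wide spread of the last value comes from 1 sequence, given below, which differed between the libraries. At 22 nt the miR396a-5p and miR396e-5p types had 6.11% and 2.14% in library 1. In library 2 they were closer, at 5.19% and 4.94%.

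**Figure D2:**
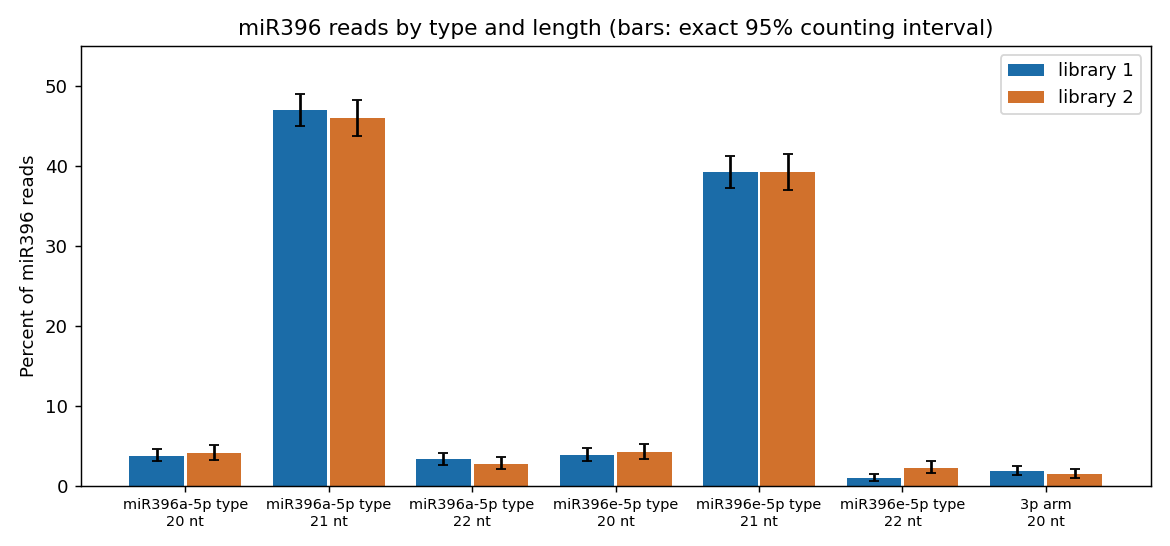
Percent of miR396 reads by type and length in each library, with exact Clopper-Pearson 95% intervals for counting error as bars. The 21-nt forms of both 5p types carry most of the reads, the 20-nt and 22-nt forms and the 3p arm each stay under 5%, and the 22-nt form of the miR396e-5p type is the one whose intervals do not overlap between libraries.

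Forms with other 3′ ends had fewer reads. The 20-nt forms that stop 1 base early and end in T had 88 and 71 reads for osa-miR396a-5p_R-1 and 91 and 79 reads for osa-miR396e-5p_R-1. They were at nearly the same level in each library. Among the 22-nt forms, the sequences with an added C and an added A after osa-miR396a-5p were listed with identical values, 38.5 reads each in library 1 and 25.5 each in library 2. Their sums are whole, 77 and 51 reads, and how the list assigned reads to each form is not stated, so the level of each alone cannot be read from it. Of the genome stretches listed for the family, 8 hold the form that ends in C and 0 hold the form that ends in A.

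The third member in abundance was osa-miR396a-5p_1ss20TG, with 125 reads in library 1 and 105 in library 2. It carries T20G relative to the registered rice miR396a-5p, counted from 1 at the 5′ end, and made up 5.50% ± 0.20 (SD, n = 2) of the family. The genome used by the authors holds it too, as 2 of the listed stretches contain the sequence without a mismatch. The shorter stretch, of 46 nt, lies wholly inside the sequence of the other, of 111 nt, so they are not shown to be separate. The shorter ppe-miR396a_R-1 lies in the same 2 stretches. It was listed at 0 in library 1 and had 6 reads in library 2.

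The 22-nt form osa-miR396e-5p_R+1_1ss21GT carries G21T relative to the registered rice miR396e-5p and has 1 base more at the 3′ end. None of the 17 stretches, including those listed for it, holds this sequence. It had 22 reads in library 1 and 42 in library 2.

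The 3p arm was represented by osa-miR396a-3p_L-1R+1, with 44 reads in library 1 and 27 in library 2. The 5p reads of both types together exceeded them by 52.0-fold and 67.9-fold. These 5p reads include 1027 and 850 of the miR396e-5p type, and 0 of the 5 stretches holding that type hold the 3p sequence. The miR396a-5p type alone had 1260 and 983 reads, so its excess over the 3p reads was smaller. The share of the 3p arm did not differ detectably between libraries (Fisher's exact test, p = 0.361, adjusted over 2 tests). This sequence begins 1 base later and ends 1 base later than the registered rice form. No 3p sequence of the miR396e-5p type is in the list, and of the 174 sequences under other names 0 lie in a miR396 stretch.

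The 19 lines place the family on 17 genome stretches with different coordinates. The sequences of 3 of them, 21, 46 and 47 nt long, lie wholly inside longer stretches of the list, so they are not shown to be separate genes, and counts over stretches include them. Of these, 12 hold a sequence of the miR396a-5p type and 5 hold one of the miR396e-5p type. Neither the assembly nor its species is named in the labels or headers, and 1 contig is at least 259 Mb long by the positions of the lines, so the stretches are described as the authors' reference, not as turmeric loci. Contigs carry only database identifiers, which are left out, and no gene annotation comes with them. The hairpins below are shown because the first carries both arms, the second is a stretch listed for the leading sequence, the third holds the T20G form, and the last is the miR396e-5p hairpin with the lowest free energy. Capitals mark the longest 5p form with reads that the stretch holds and, where present, the 3p sequence.
miR396a-5p type, 115 nt, plus strand: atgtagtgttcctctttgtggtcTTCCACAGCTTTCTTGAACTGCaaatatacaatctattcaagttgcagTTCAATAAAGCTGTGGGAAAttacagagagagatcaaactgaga
miR396a-5p type, 99 nt, plus strand: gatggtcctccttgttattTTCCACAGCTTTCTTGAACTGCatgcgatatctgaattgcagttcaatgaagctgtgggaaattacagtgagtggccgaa
miR396a-5p type with T20G, 111 nt, minus strand: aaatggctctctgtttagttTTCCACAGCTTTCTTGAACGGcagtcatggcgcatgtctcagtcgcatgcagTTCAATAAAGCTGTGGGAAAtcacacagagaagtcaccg
miR396e-5p type, 140 nt, plus strand: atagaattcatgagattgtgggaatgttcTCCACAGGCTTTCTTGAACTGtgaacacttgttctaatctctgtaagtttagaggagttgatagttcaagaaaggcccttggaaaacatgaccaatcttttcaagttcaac

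Among other criteria, the legend of the deposited table asks of a predicted hairpin at least 50 nt and a free energy of at most -15 kcal/mol. By these limits alone 13 of the 17 stretches fold into a hairpin, 76.5%, beside 74.4% of the 207 stretches listed for other entries. The 13 were 99 to 195 nt long, with free energies from -76.6 to -43.5 kcal/mol and 13 to 21 paired bases in the listed mature sequence. Their median free energy index, a measure scaled for length and GC content, was 1.0 beside 0.9 for the hairpins of other entries. In the 3 miR396e-5p hairpins 13 to 18 bases of the mature sequence were paired, in the 10 miR396a-5p hairpins 18 to 21. The lower values belong to 2 miR396e-5p stretches that begin at the first base of the mature sequence, with nothing in front of it.

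The other 4 stretches were 21 to 47 nt long, with free energies from -13.5 to -0.8 kcal/mol. The shortest is a 21-nt match to osa-miR396e-5p itself, listed with the same 457 and 364.5 reads as the 141-nt stretch of that sequence. With that line and the others on short stretches left out, osa-miR396e-5p had 457 and 364.5 reads against 970 and 750 for osa-miR396a-5p. This gap of 2.12-fold and 2.06-fold arises by construction. It sets 1 line of osa-miR396e-5p against the sum of 2 lines of osa-miR396a-5p, which had 485 and 375 reads on each line. All 7 sequences that stand on 2 lines have equal values on both, including the 2 that have no reads. In library 1 the values on these lines are already whole. In library 2 some are fractional, such as 364.5, and sum to whole reads. The equal values and whole sums are why the lines were summed.

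A single line does not locate the reads of a member. The leading sequence osa-miR396a-5p lies in 9 of the 17 stretches but is listed on 2, and osa-miR396e-5p lies in 5 and is listed on 2. The 3p sequence lies in 6 stretches, all of them also holding a 5p form of the miR396a-5p type, and is listed on 2. In each of the 5 stretches that hold both the leading sequence and the 3p sequence, the 3p end overhangs the start of the 5p arm by 2 nt in the deposited fold. The 5p end overhangs the start of the listed 3p sequence by 3 nt for the 21-nt form and by 2 nt for the 20-nt form. An overhang of 2 nt is what DICER-LIKE 1, the enzyme that cuts plant miRNA precursors, is known to leave.

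**Figure D3:**
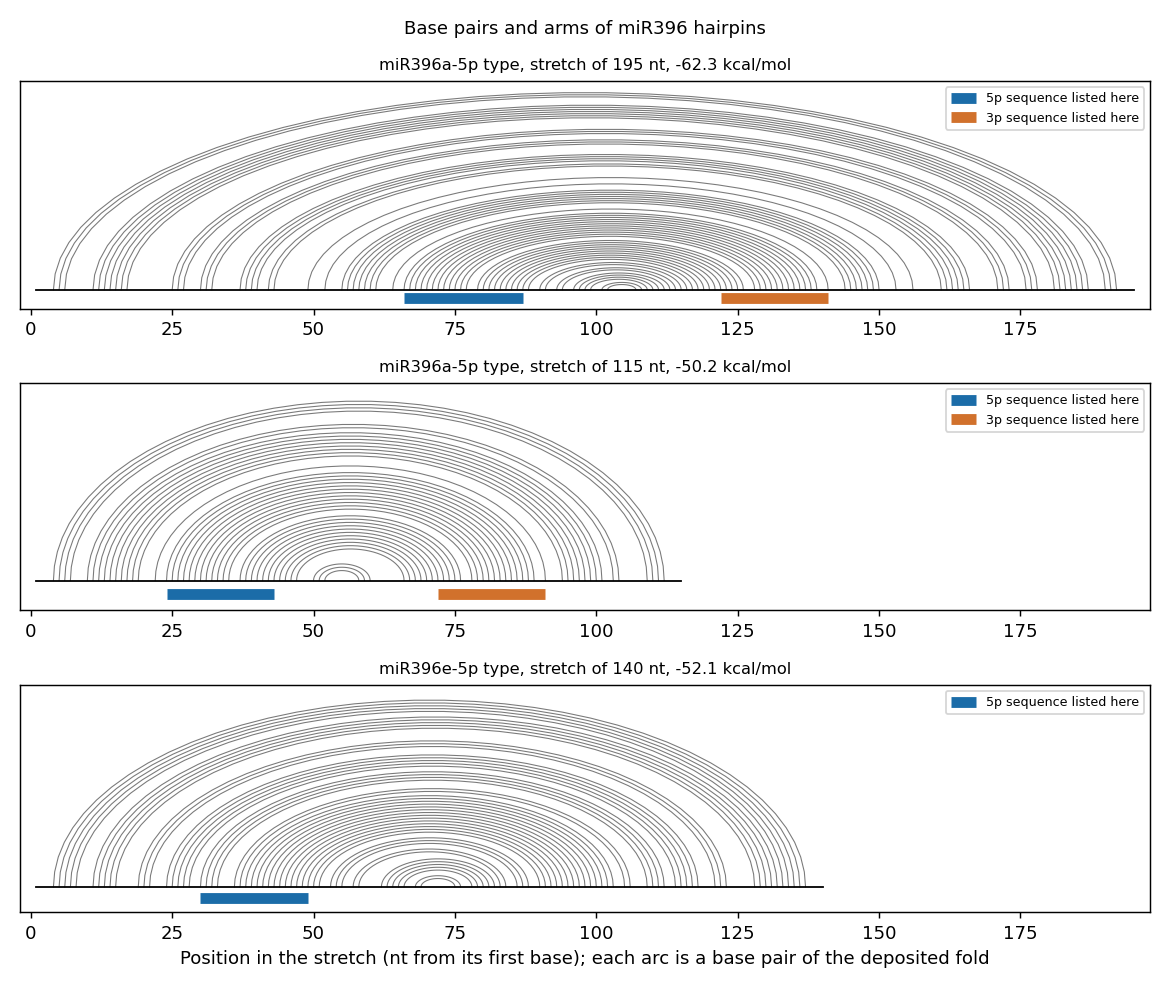
Base pairs (arcs) of the fold given in the deposited table for 3 miR396 stretches of 195, 115 and 140 nt, by position in nt from the first base, with the listed 5p sequence in blue and the 3p sequence in orange. In the 2 miR396a-5p stretches both arms face each other across the stem, and in the miR396e-5p stretch only a 5p sequence is listed.

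The sequences without reads, the longer of which carries A7G and T21G relative to the registered rice miR396c-5p, are listed at 0 in both libraries on 4 lines. None of the 17 stretches holds either sequence, and the 4 stretches given for them hold the miR396a-5p type. Because the smallest value above 0 in the list was 2.5 reads, a value of 0 may lie under a minimum of the list, and no upper limit is given.

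The registered names attached to the types differ in the plants they come from. The miR396a-5p type was tied to 108 registered hairpins of 45 species, of which 15.7% were from grasses and 17.6% from any monocot. The miR396e-5p type was tied to 18 registered hairpins of 9 species. Of these, 16 hairpins were from 7 grasses, 1 was from the bromeliad Vriesea carinata and 1 from strawberry. No registered hairpin was named for both types. Turmeric is a monocot of the ginger family, outside the grasses.

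Between the libraries most members moved little in their share of the listed reads. The ratios below depend on that denominator. The deposited normalized signal, with its factors of 0.508 and 0.923, gives higher ratios of library 2 over library 1 than the shares do. Of the 10 sequences with reads, 7 had a higher share in library 2 and 3 in library 1. The 3 include both 22-nt forms listed with identical values, which are not separate observations here or in the median that follows. The median log2 ratio of library 2 over library 1 was 0.09 for the 9 members with reads in both, beside 0.0019 for all 153 such sequences. An exact binomial test over all sequences with reads, with Benjamini-Hochberg adjustment at 0.05, called 13.8% of them different, and 2 of the 10 miR396 sequences. With so few members this count is close to the background share and says nothing particular of the family. Without adjustment, 24% of all sequences and the same 2 members had a p below 0.05. The called sequences were osa-miR396e-5p_R+1_1ss21GT, 2.55-fold higher in library 2 (95% interval 1.49 to 4.48, adjusted p = 0.00421, exact binomial test), and ppe-miR396a_R-1, listed at 0 in library 1 and at 6 reads in library 2 (adjusted p = 0.0448, exact). The latter p takes the listed 0 as a true 0, although the list may have a minimum, and is therefore uncertain. With the value of a single line per sequence neither passed (adjusted p = 0.0985 and 0.0739, exact). The leading sequence had a ratio of 1.03 (95% interval 0.937 to 1.14) and the second a ratio of 1.06 (0.965 to 1.17), and neither was called (adjusted p = 0.857 and 0.573, exact).

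**Figure D4:**
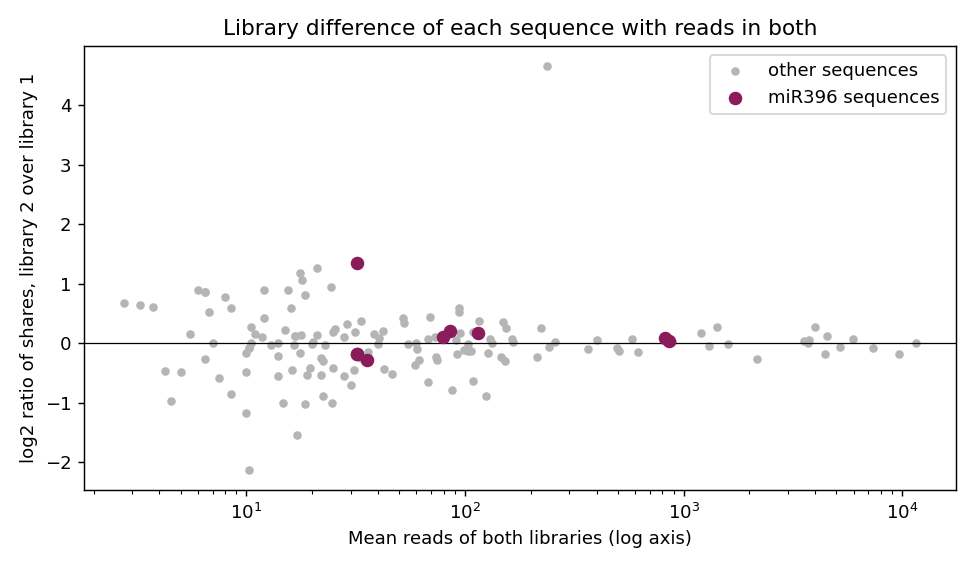
The log2 ratio of shares, library 2 over library 1, against the mean reads of both libraries for the 153 sequences with reads in both, with the 9 miR396 sequences in purple. The abundant miR396 members lie near 0, and osa-miR396e-5p_R+1_1ss21GT, 2.55-fold higher in library 2, is the miR396 point farthest from it.

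By share of the listed reads the family as a whole was 1.07-fold higher in library 2 (95% interval 1.00 to 1.13). This did not pass the test after adjustment (exact binomial test, adjusted p = 0.166). Of the 43 families with reads, 11.6% were called different. Including miR396, 23 families had at least 100 reads in each library, and of the others 19 had a lower ratio and 3 a higher one. The families with the most similar ratio, by the distance of log2 ratios over these 2 libraries, were miR170/miR171 at 0.022, miR164 at 0.025 and miR156/miR157 at 0.028. With 2 libraries this likeness is a description only.

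By mean share miR396 ranked 7 of the 43 families. It stood below miR165/miR166, which targets class III homeodomain-leucine zipper genes, by 1.89-fold, and above miR162, which targets the Dicer gene DCL1, by 1.45-fold. Both differences had the same direction in both libraries and exceeded their spread. The families next to these were miR156/miR157 above, by 3.11-fold, and miR528 below, by 2.38-fold. The leading miR396 sequence held 40.9% of the family's reads, against 57.1% in miR156/miR157, 93.5% in miR165/miR166 and 99.3% in miR162, which had only 2 sequences. The value was similar in other families, with 41.1% in miR319, 41.4% in miR164 and 48.3% in miR170/miR171.

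Of 10 families known in Arabidopsis or rice to act on organ growth beside miR396, 9 had reads, and miR390 had none in the entries used here. Of the 9, 4 stood above miR396 in mean share and 5 below. Above it was miR319, 11.0-fold higher, whose TCP targets activate MIR396 genes in Arabidopsis, and miR159, 5.79-fold higher, which targets GAMYB-type genes. Below it was miR164, 3.86-fold lower, which targets NAC genes of organ boundaries. Lower still were miR167 at 7.31-fold, miR160 at 12.7-fold, miR172 at 14.2-fold and miR393 at 35.4-fold below miR396. In each of these comparisons the direction was the same in both libraries. Between the libraries 1 of the 9 was called, miR319, with 28.6% in library 1 and 26.6% in library 2 (exact binomial test, adjusted p = 2.43e-12). This count is close to the 11.6% called among all families.

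**Figure D5:**
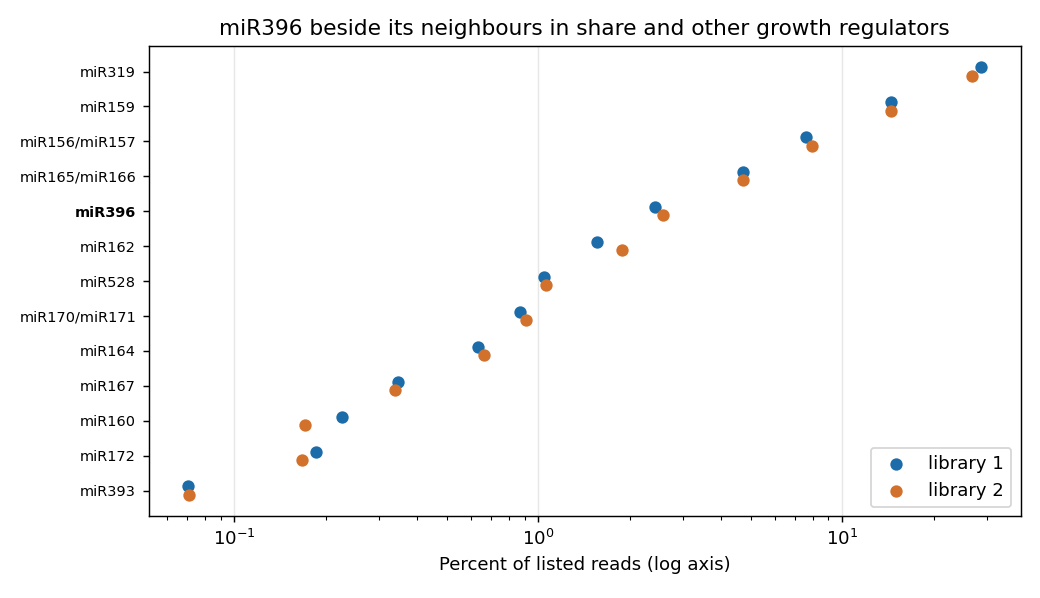
Percent of listed reads, on a log axis, of miR396, its neighbours in share and ratio, and the organ growth families with reads, in library 1 and library 2. The miR396 points, at 2.42% and 2.58%, lie between miR165/miR166 and miR162 in both libraries.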

How the data were processed

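Small RNA of 2 turmeric nanoparticle samples was extracted with a miRNeasy kit and made into Illumina small RNA libraries, per the labels' protocols. CASAVA 1.8.4 and cutadapt 1.10 appear in the submitters' processing notes without a role. Reads were matched to miRBase entries of selected plants and hairpins were then placed on a genome, per the file headers; no source used here names the release, aligner or assembly. The deposited raw column is an expected count of reads per line, and the deposited normalized signal equals it times 0.508 in library 1 and 0.923 in library 2. The authors also give the GC percent of each hairpin, its free energy and its free energy index, used here as a deposited score.

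The 266 lines used (12 further lines are not analysed here) were summed over lines with the same sequence, and the family is that of the first line. The 2 value columns of no sample here entered no step. Sums were rounded to whole reads, with a fraction of 0.5 rounded up, for exact binomial and Fisher tests and Clopper-Pearson 95% intervals in scipy 1.17.1 (Python 3.11.15), which cover counting error only. The binomial test was run on the whole list. A run on simulated counts checked its computation only, as they were drawn without variation between libraries beyond counting error and the changes put in. Identity to a registered form follows the first line of a sequence, and the arm follows its name. All 12 members are given; other families are the 2 above and 2 below in share, the 3 nearest in library ratio with at least 100 reads in each library, and the organ growth list. Members and lists were chosen with earlier results of these data known. Alternatives were single-line values, the normalized column, minimum reads, other denominators, single libraries and a hairpin limit of 50 nt and -15 kcal/mol, the last added after seeing the data. The normalized column cannot change a share, because it is the raw column times a single factor per library.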

Additional observations from a re-analysis of the deposited data

How the results depend on the processing

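With a single line per sequence the family held 2.08% of the listed reads, its leading sequence 36.3% of the family and 21-nt forms 80.9%, and 13 sequences, 0 of them miR396, differed between libraries by the adjusted exact binomial test (2 miR396 sequences had an unadjusted p below 0.05). With lines on stretches of at least 50 nt and -15 kcal/mol only, an alternative chosen after seeing the data, these shares were 3.09%, 52.6% and 84.8%, with 97.9% on the 5p arm. The family held 2.65% of reads with registered names, 3.07% without entries proposed to be rRNA or tRNA fragments, and 1.49% without its leading sequence. With at least 10 reads in both libraries 14 sequences were called, 1 of them miR396; unadjusted, 40 were. Some settings by construction have a smaller denominator or fewer tests, or drop 1 of 2 equal lines of a sequence. Otherwise the cause was not tested. Each library alone gave 2.42% to 2.58% for the family, 40.3% to 41.6% for its leading sequence, 98.1% to 98.5% for the 5p arm and 85.2% to 86.2% for 21 nt. No paired analysis was possible because the samples are all of a single group. The depth limits the members under 100 reads, and shared reads between forms limit the 22-nt pair.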
